A study of Mus musculus with 2 samples.

Results

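A set of 10 transcriptional cofactors of the heart was followed in RNA sequencing of the apex of mouse embryonic hearts at stage E12.5: Myocd, Mkl1, Mkl2, Hopx, Zfpm1, Zfpm2, Tead1, Tead4, Yap1 and Prox1. They were chosen by name, and all 10 were found among the 29383 genes of the deposited table, each as 1 row. The KO library carried the Nkx2-5cre driver and 2 floxed copies of Ezh2 (Ezh2f/f), and the Het library carried the same driver and 1 floxed copy (Ezh2f/+). Each library was made from the combined tissue of 8 hearts. The control therefore carries Cre and a floxed copy too, recombination is limited to cells that have used the Nkx2-5 driver, and cells without it keep their Ezh2. The labels call the material cardiomyocytes and name no sort. With 1 library per genotype there is no replicate check of any difference below, and no p-value was computed. Ratios carry 95% exact conditional Poisson intervals, and shares carry 95% Wilson intervals, which cover nothing but the error of counting reads.

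Cofactors tune how strongly DNA-bound transcription factors act, mostly without binding DNA themselves. Myocardin and its relatives MKL1 and MKL2 (MRTF-A and MRTF-B) switch on muscle and cytoskeletal genes through serum response factor (SRF), and the small homeodomain protein HOPX, which does not bind DNA, restrains SRF. ZFPM1 and ZFPM2 (FOG-1 and FOG-2) are zinc finger proteins that bind GATA factors and recruit repressor complexes. YAP1 is the coactivator that the Hippo kinases hold back, and it acts through the TEAD proteins, which do bind DNA, while PROX1 is a DNA-binding homeodomain factor needed for sarcomere assembly in heart muscle and for lymphatic vessels. EZH2 is the methyltransferase of Polycomb repressive complex 2, which marks silenced developmental genes on histone H3.

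The libraries held 14122579 reads in KO and 13944617 in Het. Ezh2 itself had 319 reads in KO and 493 in Het, a ratio of KO over Het of 0.601 (0.521 to 0.694), counted over the whole gene and not only its floxed part. Levels are CPM (reads per 1000000 reads) scaled between the libraries with the trimmed mean method (TMM), and the log2 ratio is log2((KO CPM + 1)/(Het CPM + 1)). Of 8 cardiomyocyte markers, 8 were above 1 CPM in both libraries, with a summed level of 41219 CPM in KO and 40560 CPM in Het. Their median log2 ratio was 0.19, with 6 above 0 and 2 below, so near-equal sums do not mean that each marker was even. Markers of other cells were present as well: 8 endothelial genes summed to 906.4 CPM in KO and 944.6 CPM in Het, and sums ranged from 75.4 to 1576 CPM for each of the smooth muscle, pericyte, lymphatic, epicardial and cushion lists, so the material was not made of cardiomyocytes alone.

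All 10 cofactors were above 1 CPM in both libraries. A size of 0.32 on the log2 scale was used to call a gene higher or lower, with no test behind the call. By it 1 cofactor, Zfpm1, was higher in KO, against 12.4% of the 16185 genes that reached 1 CPM in a library. None of the 10 was lower by that size, against 10.7% of those genes. None was 2-fold apart either, where 0.605% of the genes were higher and 0.173% lower in KO. Of the cofactors, 7 had log2 ratios above 0 and 3 below, with a median of 0.09 beside -0.01 for all genes, of which 48.8% were above 0. The share of cofactors past the size is thus near that of genes at large. With TMM scaling, counting intervals excluded a ratio of 1 upward for Zfpm1, Tead1 and Myocd and downward for Hopx and Zfpm2, and held 1 for the other 5. The split depends on the scaling: the interval of Yap1 lay above 1 with DESeq2 factors, upper quartiles and library totals, and with library totals that of Prox1 lay above 1 as well and that of Zfpm2 held 1. In bulk tissue, fewer cells of a type and less RNA per cell cannot be told apart.

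**Figure D1:**
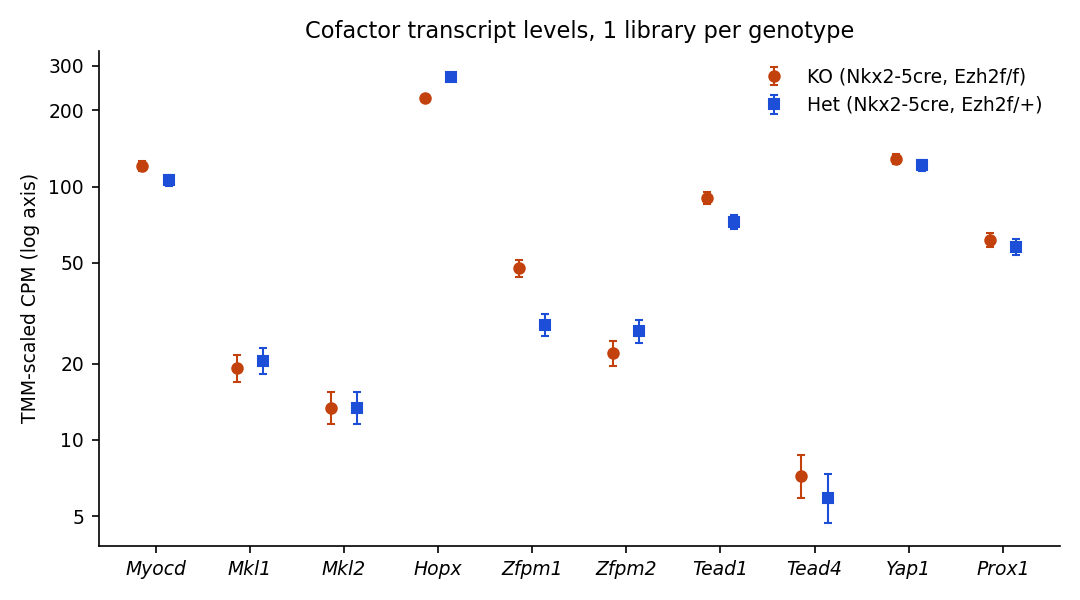
Level of each cofactor in TMM-scaled CPM on a log axis, in KO (circles, left of each pair) and Het (squares), 1 library each, with bars for the 95% counting interval. Zfpm1 has the widest gap, at 47.6 CPM in KO and 28.4 CPM in Het, while Hopx and Zfpm2 are lower in KO.

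Per kilobase of the longest coding transcript, Hopx was the most abundant cofactor, at 177 CPM per kb in KO and 215 CPM per kb in Het. Yap1 followed with 30.9 CPM per kb in KO and 29.1 CPM per kb in Het, and Myocd with 23.5 CPM per kb in KO and 20.7 CPM per kb in Het. Zfpm1 came next in both libraries, with a wider lead in KO. Tead1 and Prox1 followed it, with Tead1 ahead in KO and both alike within counting error in Het. Zfpm1 stood at 14.04 CPM per kb in KO, clear of Tead1 (9.01) and Prox1 (7.78), whereas in Het it had 8.37 CPM per kb with a counting interval (7.56 to 9.25) that overlapped those of Prox1 (7.31) and Tead1 (7.29). Mkl1 and Zfpm2 followed, at 4.36 and 3.80 CPM per kb in KO and 4.68 and 4.63 CPM per kb in Het, with overlapping intervals in each library. Tead4 and Mkl2 were the least abundant: Tead4 had 2.34 CPM per kb in KO and 1.92 CPM per kb in Het, and Mkl2 had 1.61 CPM per kb in each. Their intervals overlapped in Het and not in KO. In plain CPM Mkl2 stood above Tead4, at 13.4 in each library beside 7.21 in KO and 5.91 in Het. Their order thus rests on the transcript lengths used, 8295 bases for Mkl2 and 3076 for Tead4. These lengths may differ from those of the deposited gene models.

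Among the SRF coactivators, myocardin was slightly higher in KO and its relatives were near even. Myocardin (chromosome 11, 64990072 to 65083491 in the coordinates of the files) drives cardiac and smooth muscle genes, and Myocd had 1751 reads in KO and 1431 in Het. That is 120 CPM in KO and 106 CPM in Het, 1.14-fold higher in KO (1.06 to 1.22). A second model of the table, BSAC2A, covers only the 3′ end of Myocd and held 760 reads in KO and 672 in Het, a ratio of 1.05 (0.946 to 1.17). The reads of Myocd beyond that model numbered 991 in KO and 759 in Het, a ratio of 1.21 (1.10 to 1.34). The share of Myocd reads outside the 3′ model was 56.6% in KO (54.3 to 58.9) and 53.0% in Het (50.4 to 55.6), and these intervals overlapped.

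Its relatives, which move to the nucleus when actin polymerises, were close to even with TMM scaling. Mkl1 (chromosome 15, 80842711 to 81021187) had 279 reads in KO and 278 in Het, or 19.2 CPM in KO and 20.6 CPM in Het, with a ratio of 0.933 (0.787 to 1.11). Mkl2 (chromosome 16, 13358732 to 13412796) had 195 reads in KO and 181 in Het, 13.4 CPM in each, with a ratio of 1.001 (0.814 to 1.23). Neither gene was separated between the libraries beyond counting error, but the value of Mkl1 depended on the processing: its log2 ratio was -0.10, and -0.3185 with a trend on GC content and length removed, just short of the size used for calls. That of Mkl2 was -0.09 with the trend removed. Mkl1 made up 58.9% of the reads of the pair in KO (54.4 to 63.2) and 60.6% in Het (56.0 to 64.9), a measure that needs no scaling between libraries, and the intervals overlapped.

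Hopx, the restraint on SRF, expressed in progenitors committed to heart muscle, was the most highly expressed cofactor and was lower in KO. Hopx (chromosome 5, 77516015 to 77544148, minus strand) had 3244 reads in KO and 3670 in Het, which is 223 CPM in KO and 271 CPM in Het, a ratio of 0.821 (0.783 to 0.861). Its log2 ratio of -0.28 lies at percentile 13.5 of all genes. It was -0.20 with scaling to library totals and -0.087 with a trend on GC content and length removed, so its size depended on both choices.

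The gene has 2 start sites in RefSeq, 19856 bases apart, and the table holds a second model that starts near the downstream one. The model named Ob1 (chromosome 5, 77516015 to 77524280) spans 8266 bases, ends where Hopx ends, and starts 19868 bases downstream of it, so it lacks the far upstream first exon, which is 275 bases long in GENCODE M21. Ob1 had 3216 reads in KO and 3489 in Het, a ratio of 0.856 (0.816 to 0.899). The reads of the Hopx model beyond those of Ob1 numbered 28 in KO and 181 in Het. That is 0.863% of the reads of Hopx in KO (0.598 to 1.24) and 4.93% in Het (4.28 to 5.68), and a ratio of 0.144 (0.0929 to 0.215), or 6.96-fold lower in KO. Ob1 also spans the exons of 157 and 829 bases that the long form shares with the short forms in GENCODE M21, so its reads come from both forms and these shares are not shares of transcripts. The excess was further apart in ratio than the whole gene or the inner model. The comparison of the 2 models was chosen after their values were seen. Subtracting one from the other, here and for Myocd and Zfpm2, holds if every read of the inner model is also counted under the gene, which the sources used here do not state. Elsewhere in the table, Chd4 and a cDNA model of the same span, mKIAA4075, each hold the same 7206 reads in KO and 5800 in Het, so reads there were counted under both. If the Hopx model leaves out the 231 bases that only the short form has, the excess is the upstream exon minus those bases, and a lower upstream exon cannot be told apart from a higher short-form start.

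**Figure D2:**
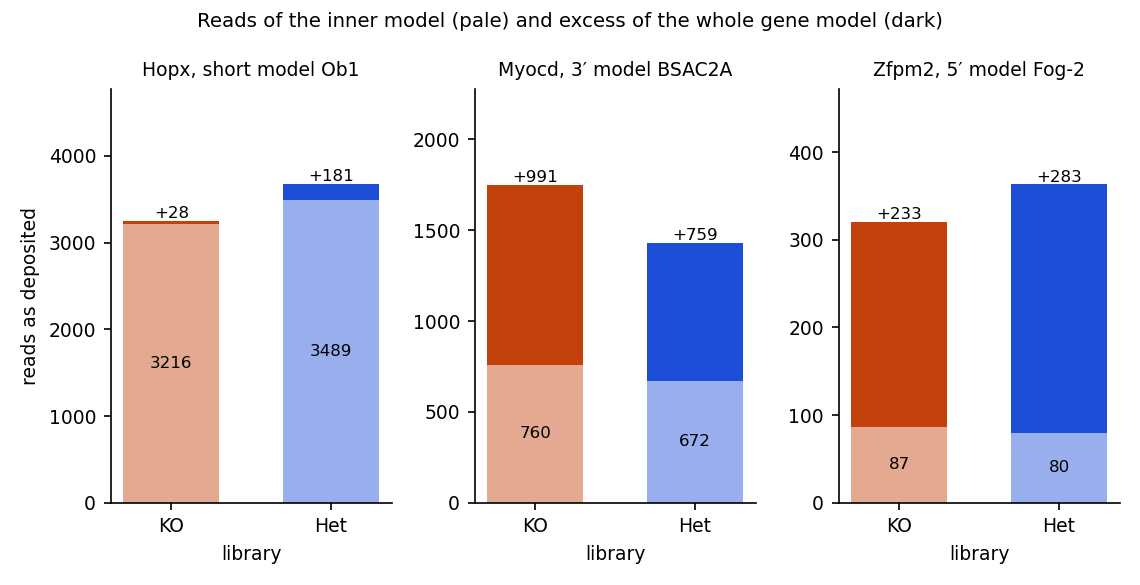
Reads as deposited of Hopx, Myocd and Zfpm2 in KO (left bar) and Het (right bar), with the reads of an inner gene model in pale colour and the excess of the whole gene model in dark colour, marked with a plus sign. The excess of Hopx over Ob1 is 28 reads in KO and 181 in Het, while that of Myocd is 991 in KO and 759 in Het and that of Zfpm2 is 233 in KO and 283 in Het.

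The 250 bases before each Hopx start are shown because the models Hopx and Ob1 start near them, and those before Zfpm1 and Yap1 because they are the gene farthest apart and the coactivator of the TEAD proteins. They are RefSeq sequences of GRCm38.p6, 5′ to 3′ on the strand of the gene. Capitals mark a CArG box, the site bound by SRF, or an M-CAT element (CATTCC, or GGAATG on the other strand), the site bound by TEAD proteins, both searched on both strands.
Hopx upstream start, chr5:77115124-77115373, minus strand: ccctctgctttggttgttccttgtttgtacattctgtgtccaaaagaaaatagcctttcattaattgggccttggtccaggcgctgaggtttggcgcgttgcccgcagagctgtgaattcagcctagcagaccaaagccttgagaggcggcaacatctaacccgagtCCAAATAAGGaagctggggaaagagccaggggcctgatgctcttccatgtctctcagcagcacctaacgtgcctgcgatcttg
Hopx downstream start, chr5:77095268-77095517, minus strand: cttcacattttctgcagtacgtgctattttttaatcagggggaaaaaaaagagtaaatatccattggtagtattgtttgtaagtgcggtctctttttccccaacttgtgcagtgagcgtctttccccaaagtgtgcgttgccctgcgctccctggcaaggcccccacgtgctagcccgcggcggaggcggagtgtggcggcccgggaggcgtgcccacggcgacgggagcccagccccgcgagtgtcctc
Zfpm1 start, chr8:122281891-122282140, plus strand: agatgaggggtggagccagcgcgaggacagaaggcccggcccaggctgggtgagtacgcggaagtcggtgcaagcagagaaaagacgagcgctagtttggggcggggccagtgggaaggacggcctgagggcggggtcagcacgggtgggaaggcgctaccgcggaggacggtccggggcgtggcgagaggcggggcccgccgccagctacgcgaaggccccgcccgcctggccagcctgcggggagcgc
Yap1 start, chr9:8004597-8004846, minus strand: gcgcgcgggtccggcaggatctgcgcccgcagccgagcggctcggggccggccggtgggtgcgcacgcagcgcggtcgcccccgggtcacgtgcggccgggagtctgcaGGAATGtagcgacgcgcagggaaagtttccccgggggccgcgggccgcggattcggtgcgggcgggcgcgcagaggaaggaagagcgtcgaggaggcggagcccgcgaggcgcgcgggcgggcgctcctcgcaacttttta

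The upstream Hopx window holds 1 CArG box, whose first base lies at position -83 from the start, and 8 CG dinucleotides. The downstream window holds no CArG box and 18 CG dinucleotides. A CArG box occurs in 1.47% of the 32851 RefSeq promoter windows of this length, whose median is 6 CG dinucleotides. The Zfpm1 window holds neither motif and has 28 CG dinucleotides with a GC content of 73.2%, and the Yap1 window holds 1 M-CAT element at position -141, present in 12.6% of all windows, and 44 CG dinucleotides. RefSeq windows were at hand for 6 of the 10 cofactors (Hopx, Prox1, Zfpm1, Yap1, Mkl1 and Mkl2). Of the remaining 7 windows, 1 of the 3 of Mkl2 held an M-CAT element at position -81, and 0 of 11 windows held AGATAA, a form of the GATA site found in 9.99% of all windows. A match to these letters is a description and was not tied to binding.

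Of the FOG genes, Zfpm1 was higher in KO and Zfpm2 lower. Zfpm1 (chromosome 8, 124806041 to 124861147), the partner of GATA1 in blood cells, also needed in the developing heart, had 693 reads in KO and 384 in Het. Its level was 47.6 CPM in KO and 28.4 CPM in Het, 1.68-fold higher in KO (1.48 to 1.90), and its log2 ratio of 0.73 lies at percentile 98.2 of all genes. The authors' deposited table gives a fold of Het over KO of 0.561, without the TMM scaling. Zfpm1 is a GC-rich transcript, at 66.8% against a median of 50.3% over all genes with a value, and log2 ratios in these libraries followed GC content: the 627 genes with at least 60% GC had a median log2 ratio of 0.22. With a trend on GC content and length removed, the log2 ratio of Zfpm1 was 0.34, still past 0.32.

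Zfpm2 (chromosome 15, 40486588 to 40936138), the FOG protein needed for coronary vessel formation, had 320 reads in KO and 363 in Het. That is 22.0 CPM in KO and 26.8 CPM in Het, a ratio of 0.819 (0.703 to 0.955), whose interval held 1 with library totals (0.747 to 1.014). A shorter model named Fog-2, which starts with Zfpm2 and ends inside the gene, had 87 reads in KO and 80 in Het, a ratio of 1.01 (0.737 to 1.39). The reads of Zfpm2 beyond it numbered 233 in KO and 283 in Het, a ratio of 0.765 (0.640 to 0.913). The share beyond the shorter model was 72.8% in KO (67.7 to 77.4) and 78.0% in Het (73.4 to 81.9), again with overlapping intervals. Within the pair, Zfpm1 took 68.4% of reads in KO (65.5 to 71.2) and 51.4% in Het (47.8 to 55.0). These intervals did not overlap, and the share needs no scaling between libraries, though a trend with GC content would act on it, Zfpm2 having 44.0% GC. Per kilobase, Zfpm1 exceeded Zfpm2 by a factor of 3.70 in KO and 1.81 in Het.

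Red cell and megakaryocyte genes, the other place where Zfpm1 is used, summed to a lower level in KO. Of 11 such markers, 9 were in the table and 7 reached 1 CPM, of which 4 were lower in KO by at least 0.32 and 1 was higher. The shares over all genes were 10.7% lower and 12.4% higher. All 9 summed to 3047 CPM in KO and 4874 CPM in Het, and none was at 0 in both libraries. Most of these sums came from globin genes: Hbb-y had 2074 CPM in KO and 2884 CPM in Het, and Hbb-b1 had 920 CPM in KO and 1912 CPM in Het. The sums therefore say little about the megakaryocyte genes. The GATA partner of that lineage, Gata1, had 8 reads in KO and 9 in Het, and the megakaryocyte gene Itga2b 63 in KO and 90 in Het. The part of these cells in the Zfpm1 value was not tested.

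Genes that FOG proteins bind or recruit gave a median log2 ratio of 0.07 over the 20 of 21 that reached 1 CPM, with 3 higher in KO by at least 0.32 and 0 lower. A share of 3 in 20 is near the 12.4% of all genes higher by that size. Gata5, a factor of endocardium, had 412 reads in KO and 244 in Het (1.57-fold higher, 1.34 to 1.85). Gata3, best known from T cells, had 55 reads in KO and 34 in Het, and its ratio of 1.503 (0.963 to 2.38) held 1. Gata2, an endothelial and blood factor named after its value was seen, had 259 reads in KO and 183 in Het (1.32-fold higher, 1.08 to 1.60). Its log2 ratio of 0.37 was 0.18 with the GC trend removed, which leaves 2 genes past the size. Gata4, the main cardiac partner of FOG-2, had 3268 reads in KO and 2703 in Het, a ratio of 1.12 (1.07 to 1.18), and its log2 ratio of 0.17 was 0.00 with the GC trend removed. Chd4, the helicase of the NuRD repressor complex that FOG proteins recruit, had 7206 reads in KO and 5800 in Het, a ratio of 1.15 (1.12 to 1.20). With the GC trend removed its log2 ratio was 0.07.

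Tead1 was higher in KO, the interval of Tead4 held 1, and that of the coactivator Yap1 held 1 with TMM scaling only. Tead1 (chromosome 7, 119823107 to 120043504), the TEAD protein needed for growth of the embryonic heart wall, had 1307 reads in KO and 982 in Het. Its level was 89.8 CPM in KO and 72.6 CPM in Het, 1.24-fold higher in KO (1.14 to 1.34), with a log2 ratio of 0.30 at percentile 86.3 of all genes. Tead1 thus lay just short of 0.32, and passed it with scaling to library totals (0.39). Tead4 (chromosome 6, 128177161 to 128250831), better known from muscle precursors and the trophectoderm, had 105 reads in KO and 80 in Het, 7.21 CPM in KO and 5.91 CPM in Het, a ratio of 1.22 (0.903 to 1.65). At this depth its difference was not separable from counting error, and its log2 ratio of 0.25 was 0.324 with library totals and 0.08 with the GC trend removed. Tead1 made up 92.6% of the reads of the pair in KO (91.1 to 93.8) and 92.5% in Het (90.7 to 93.9), with overlapping intervals, and per kilobase Tead1 was 3.84 times as high as Tead4 in KO and 3.79 times in Het.

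Yap1 (chromosome 9, 7932001 to 8004588) had 1876 reads in KO and 1643 in Het. Its level was 129 CPM in KO and 121 CPM in Het, and the interval of the ratio, 1.06 (0.992 to 1.13), held 1. It lay above 1 with DESeq2 factors (1.002 to 1.15), upper quartiles (1.005 to 1.15) and library totals (1.05 to 1.21). Around it, Hippo pathway genes and other TEAD partners had a median log2 ratio of 0.03 over the 20 of 22 that reached 1 CPM. In KO 1 was higher by at least 0.32 and 0 lower, against 12.4% and 10.7% of all genes. The exception was Mob1b (Mobkl1a in the table), an adaptor of the LATS kinases, at 524 reads in KO and 348 in Het (1.40-fold, 1.22 to 1.61), and a cDNA model on its strand that can share its reads had 620 in KO and 584 in Het. Tead2, the TEAD gene of the embryo at large, had 1738 reads in KO and 1623 in Het and a ratio of 0.995 (0.929 to 1.07), and the angiomotin-like scaffold gene Amotl1 had 1931 reads in KO and 1797 in Het and a ratio of 0.998 (0.936 to 1.06).

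Known targets of YAP and TEAD had a median log2 ratio of 0.02 over 15 of 15 genes. By at least 0.32, 0 were higher in KO and 2 lower, against 12.4% and 10.7% of all genes. The median was -0.07 with the GC trend removed. Those 2 were Ctgf, the matricellular growth factor gene, with 766 reads in KO and 1097 in Het (ratio 0.649, 0.591 to 0.712), and Ankrd1, the cardiac ankyrin repeat gene, with 7591 in KO and 10724 in Het (ratio 0.658, 0.639 to 0.677). An antisense model with 227 reads in KO and 278 in Het overlaps Ctgf and cannot be told apart from it without strand. Ccnd1, the cyclin D1 gene, had 2003 reads in KO and 1737 in Het, a ratio of 1.07 (1.004 to 1.14).

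**Figure D3:**
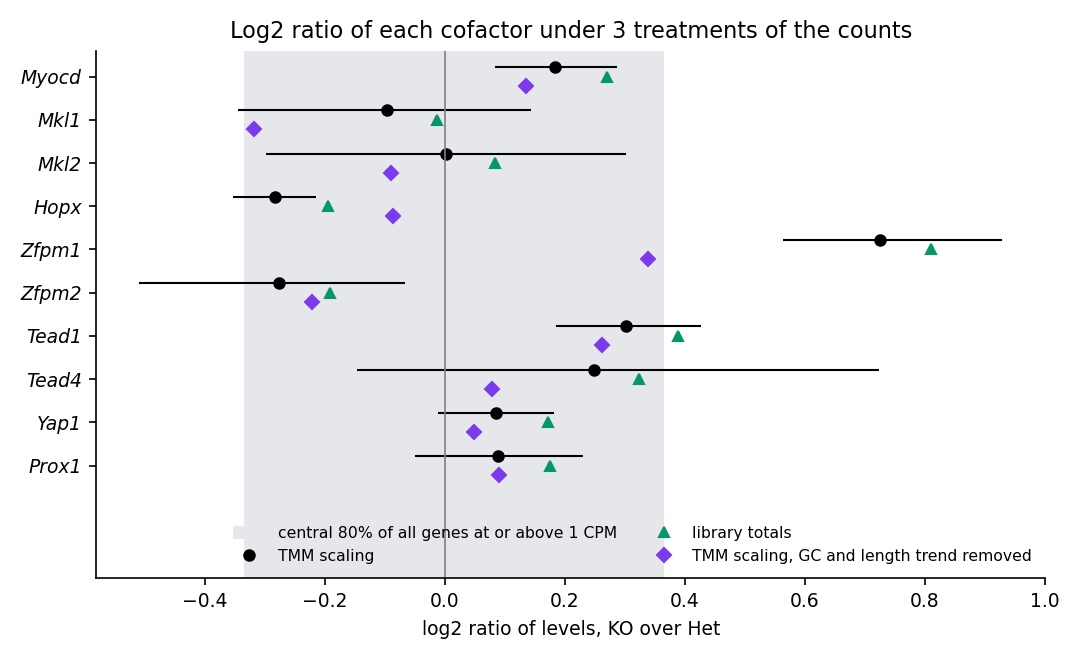
Log2 ratio of KO over Het for each cofactor with TMM scaling (circles, lines for the 95% counting interval of the plain ratio), with scaling to library totals (triangles) and with the trend on GC content and length removed (diamonds); the grey band holds the central 80% of all genes at or above 1 CPM. The band was drawn from TMM-scaled values with the trend left in, so it is no matching spread for the diamonds. Zfpm1 lies right of the band with TMM scaling (0.73) and has a log2 ratio of 0.34 with the trend removed.

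Prox1 (chromosome 1, 191945658 to 191994559) had 896 reads in KO and 782 in Het. Its level was 61.5 CPM in KO and 57.8 CPM in Het, and the interval of the ratio, 1.06 (0.966 to 1.17), held 1, while with library totals it lay above 1 (1.027 to 1.247). Genes listed for lymphatic endothelium, another place where Prox1 is used, summed to 79.6 CPM in KO and 75.4 CPM in Het over 5 genes. Most of that came from Pdpn, at 39.4 CPM in KO and 37.1 CPM in Het, and Flt4, at 30.4 CPM in KO and 28.8 CPM in Het. The part of lymphatic cells in the Prox1 value was not tested. Of 5 liver genes 1 reached 1 CPM, their sum being 1.17 CPM in KO and 2.14 CPM in Het. PROX1 is known to repress fast skeletal muscle genes in mouse heart, and such genes differed between the libraries in both directions. Of 8 listed, 6 reached 1 CPM, with a median log2 ratio of 0.34. Against 12.4% and 10.7% of all genes, 3 of the 6 were higher in KO by at least 0.32 and 1 lower. With a floor of 5 CPM, which 4 of them reach, the median was 0.0055.

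The troponin T gene Tnnt3 had 294 reads in KO and 146 in Het (1.87-fold higher, 1.53 to 2.30). An antisense model with 37 reads in KO and 18 in Het overlaps Tnnt3. The troponin I gene Tnni2 had 854 reads in KO and 1327 in Het (ratio 0.598, 0.548 to 0.652). The light chain gene Myl1 had 667 reads in KO and 739 in Het (ratio 0.839, 0.754 to 0.932). The remaining genes past 0.32, Actn3 with 55 reads in KO and 35 in Het and Atp2a1 with 37 in KO and 22 in Het, were singled out because the count is small, and their intervals held 1. With the GC trend removed their log2 ratios were 0.28 for Actn3 and 0.31 for Atp2a1, both short of 0.32. Mylpf, named after its value was seen, had 182 reads in KO and 139 in Het, and its ratio of 1.22 (0.970 to 1.53) held 1. Its log2 ratio of 0.26 was 0.41 with that trend removed, which makes 2 genes of the list higher by at least 0.32. Tnnt3 was thus higher and Tnni2 lower in KO, while Prox1 itself had a ratio of 1.06.

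Smooth muscle genes driven by SRF with myocardin had a median of 0.10 over 13 of 13. By at least 0.32, 3 were higher in KO and 1 lower, against 12.4% and 10.7% of all genes. Lmod1, a leiomodin that nucleates actin, had 35 reads in KO and 13 in Het (2.50-fold higher, 1.29 to 5.15). Kcnmb1, a potassium channel subunit of smooth muscle, had 144 in KO and 78 in Het (1.72-fold, 1.29 to 2.29). Tagln, the SM22 gene, singled out because the count is small, had 2053 in KO and 1298 in Het (1.47-fold, 1.37 to 1.58). The 2 most abundant members were closer to even and lay on either side of it. Acta2, smooth muscle actin, had 13629 reads in KO and 14980 in Het (ratio 0.845, 0.826 to 0.865), while Myl9, a regulatory light chain, had 25089 reads in KO and 21398 in Het, slightly higher in KO (ratio 1.09, 1.07 to 1.11). A cDNA model on the strand of Acta2 that can share its reads had 597 in KO and 629 in Het. The lower gene was Myh11, the smooth muscle myosin, with 13 reads in KO and 25 in Het, a ratio of 0.483 (0.227 to 0.981). The 7 smooth muscle markers, all of which are also on this list, summed to 1458 CPM in KO and 1576 CPM in Het. Most of these sums came from Acta2, at 936 CPM in KO and 1107 CPM in Het. Of the 7 markers, 3 had log2 ratios above 0 and 4 below.

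Cytoskeletal targets of SRF with the MKL proteins had a median of 0.04 over the 15 of 16 found. By at least 0.32, 1 was higher and 2 were lower in KO, against 12.4% and 10.7% of all genes. Tpm2, beta-tropomyosin, was the higher one with 2673 reads in KO and 1680 in Het (1.48-fold, 1.39 to 1.57). Tuft1 and Fhl2 were the lower ones, Tuft1 with 86 reads in KO and 109 in Het (ratio 0.733, 0.546 to 0.982) and the LIM-only gene Fhl2 with 1373 in KO and 1664 in Het (ratio 0.767, 0.713 to 0.824), where an antisense ribosomal protein model with more reads (2635 in KO, 2323 in Het) overlaps. The most abundant genes were near even, with beta-actin (Actb) at a ratio of 0.962 (0.947 to 0.977) and Tpm1 at 0.944 (0.930 to 0.958). A model on the strand of Tpm1 that can share its reads had 8298 in KO and 8302 in Het.

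Regulators of SRF and partners of HOPX had a median of 0.04 over 16 of 16. Against 12.4% and 10.7% of all genes, 0 were higher and 3 lower in KO by at least 0.32. Beside Fhl2, which binds SRF, these were Abra, the actin-binding activator of MKL signalling also called STARS, with 196 reads in KO and 262 in Het (ratio 0.695, 0.575 to 0.840), and Hdac9, a class II deacetylase singled out because the count is small, with 625 in KO and 758 in Het (ratio 0.766, 0.688 to 0.853). Srf itself, the factor that these regulators act on, had 1621 reads in KO and 1665 in Het (ratio 0.905, 0.844 to 0.969). Its log2 ratio of -0.14 was -0.44 with the GC trend removed, which makes 4 genes of this list and 3 of the cytoskeletal list lower by at least 0.32.

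**Figure D4:**
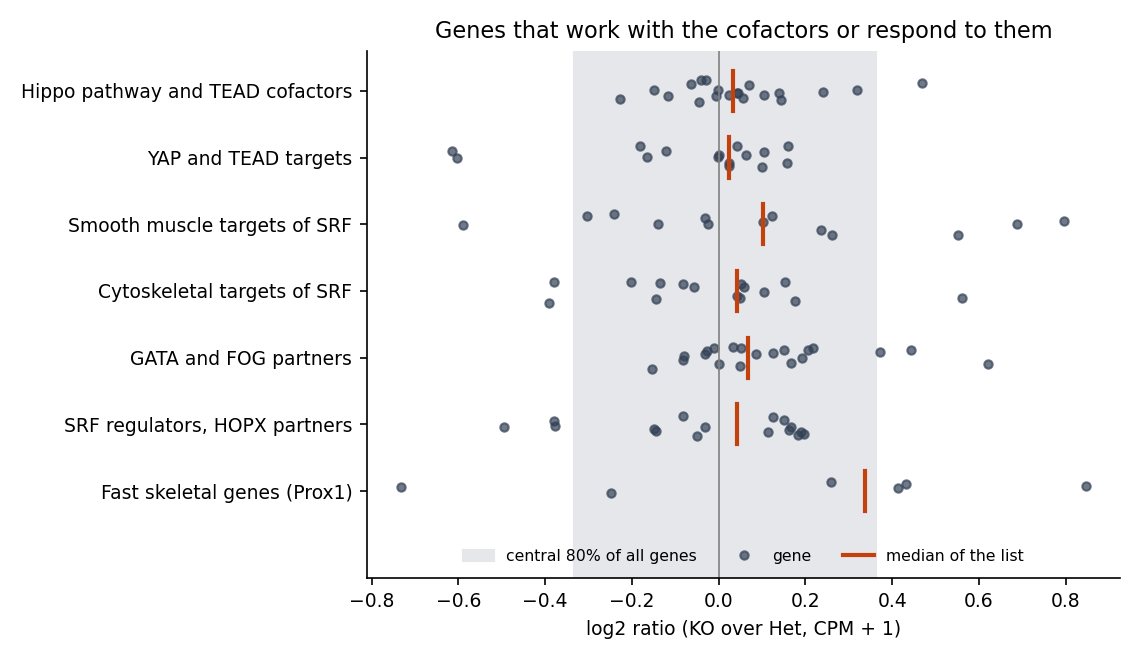
Log2 ratio of KO over Het for genes at or above 1 CPM in 7 lists of partners and targets of the cofactors, 1 point per gene, with the median of each list in orange and the central 80% of all genes in grey. Medians of the first 6 lists lie between 0.02 and 0.10, 4 of which fall below 0 with the GC trend removed, and the list of fast skeletal genes, with 6 genes, at 0.34.

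**Figure D5:**
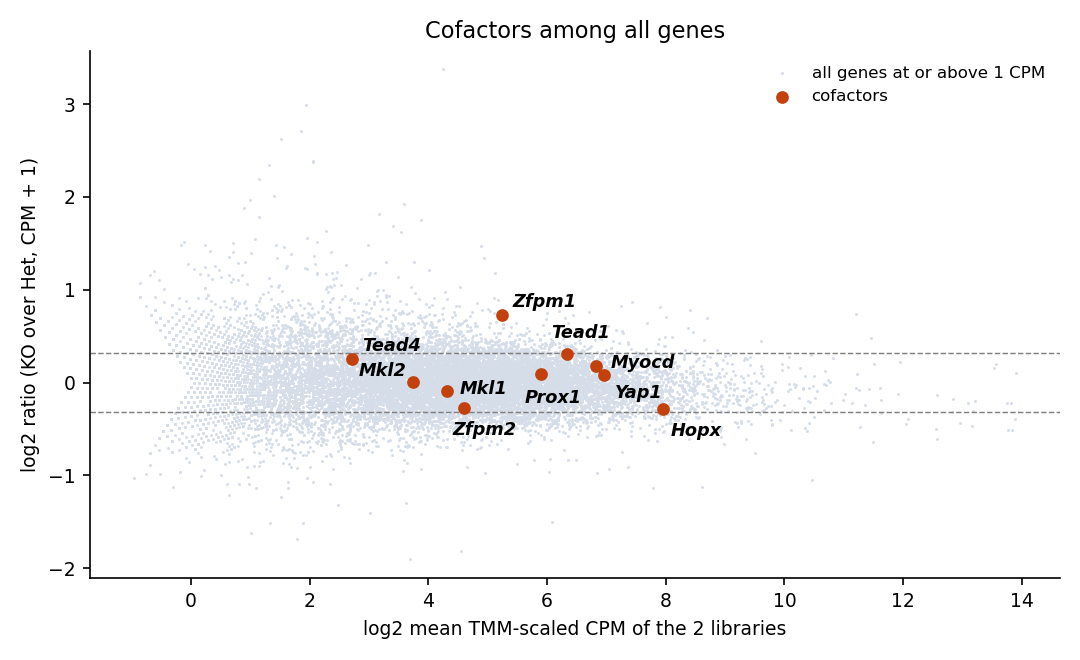
Log2 ratio of KO over Het against the log2 mean level for the 16185 genes at or above 1 CPM in a library (grey), with the 10 cofactors in orange and dashed lines at 0.32 above and below 0. Zfpm1 (0.73) is the one cofactor outside the dashed lines, and Hopx, at -0.28, is the most abundant.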

How the data were processed

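RNA from the apex of 8 hearts per genotype, per the series' design text, went into 1 library each. The labels' protocols name a full-length RNA-seq kit. The deposited table gives whole-number read counts per gene model, and the authors' CPM, which are reads per 1000000 reads of the library (recomputed to within 4.91e-11). It also holds the authors' fold, a ratio of Het over KO CPM, and a deposited p-value with no named test, which was not used. The sources used here name no aligner, counting rule, strand setting or genome build. Starts were taken to be counted from 0 and raised by 1. Rows of 1 symbol were summed.

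TMM factors (edgeR 4.0.16, R 4.3.3) were 1.03 for KO and 0.970 for Het. Ratios carry exact conditional Poisson 95% intervals, and shares carry Wilson intervals. The Poisson intervals were tried on simulated Poisson counts with known scaling, which hold no error but counting and so do not test them for these libraries. Libraries had no molecular identifiers named, so PCR copies of a molecule may be counted more than once. Alternatives used DESeq2 1.42.0 size factors, upper quartiles, library totals, other pseudocounts and floors, the top row per symbol, and a fit in which a quadratic trend of the log2(CPM + 1) ratio with transcript GC and length was taken out (longest GENCODE M21 coding transcript, 81.8% of tested genes). Members and lists were chosen with earlier results of these data known. Genes named are the cofactors and, from each list, the 2 with the highest mean CPM and the 2 farthest from 0 in log2 ratio, where a result turns on them. Gata1, Itga2b, Hbb-y, Hbb-b1, Pdpn, Flt4 and Srf were named outside this rule, after their values were seen.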

Additional observations from a re-analysis of the deposited data

How the results depend on the processing

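No paired analysis was possible because each genotype has 1 library, and no replicate could be left out. Of the values recomputed under each alternative, 164 stayed within a set margin, 19 did not, and no value past 0.32 changed sign. The margin was the reach of the counting interval for a cofactor and 1.5 times for counts. For a list median it was the median reach, to either side, of the counting intervals of its genes. With the GC and length trend removed, Mkl1 had a log2 ratio of -0.3185 and smaller values changed sign: Mkl2 had a log2 ratio of -0.09, and list medians were -0.0044 for the Hippo genes, -0.07 for YAP and TEAD targets and -0.06 for SRF regulators. Hopx had a log2 ratio of -0.20 with library totals and -0.087 with the GC and length trend removed, and Zfpm1 had 0.34 with that trend removed. Library totals put 3 cofactors at least 0.32 (log2) higher, and 1046 genes at least 0.32 (log2) lower. A pseudocount of 0.1 CPM gave 312 genes 2-fold higher and 143 lower. One of 5 CPM gave 14 higher and 6 lower, with 843 at least 0.32 (log2) higher and 811 lower. Removing the trend, possible for 13239 of the 16185 genes, gave 1255 higher and 870 lower by at least 0.32 and 64 higher by 2-fold. It also gave a median of -0.065 for cytoskeletal SRF targets. A floor of 5 CPM gave 1214 genes higher by at least 0.32, 50 higher and 14 lower by 2-fold, and a median of 0.0055 for the fast skeletal list. Counts with the trend removed or the higher floor cover fewer genes than the main counts, so they do not share a base with them. The cause of these shifts was not tested. Among counts of genes within lists, 113 stayed within 1.5 times and 13 did not. Tead4 had the fewest reads of the cofactors, 105 in KO and 80 in Het.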

Other observations

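Antisense models overlap 2 of the cofactors at their starts. AK142161, which overlaps the start of Prox1, had 42 reads in KO and 60 in Het, a ratio of 0.650 (0.428 to 0.981), while Prox1 itself had 896 reads in KO and 782 in Het. AK009335, which overlaps the start of Tead1, had 36 reads in KO and 33 in Het, a ratio of 1.01 (0.614 to 1.68). Without strand, reads in the shared bases cannot be assigned to either gene. A short model inside Tead4 on its strand, DQ699682, had 3 reads in KO and 1 in Het, too few to compare.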
